A study of Mus musculus with 19 samples.

Results

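Of 19 primary p53/MCA sarcomas with RNA sequencing values, 11 carried the genotype label Rag2-/-, and 3 of these, S41, S46 and S51, do not appear in the published source data on mutations and neoantigen expression. These 3 tumors were set against the 8 listed Rag2-/- tumors (S42, S43, S44, S45, S47, S48, S49 and S50), first as a group and then one by one. The rule uses that listing and no expression value. All 11 mice were 6 to 10 weeks old when the gastrocnemius muscle was injected with an adenovirus that carries Cas9 and a guide RNA against Trp53, followed by 300 µg of the carcinogen 3-methylcholanthrene (MCA) in sesame oil. They received no further treatment, and tumors were taken at 70 to 150 mm3. Each library is bulk tumor from 1 mouse, so fewer cells of a type and less RNA per cell cannot be told apart. The 8 Rag2+/- tumors of the series were started in the same way and serve here as background. Among them, S56 is also absent from that source data. The values are log2 of upper-quartile normalized FPKM (fragments per kilobase of transcript, scaled for depth) after 0.1 was added, so the floor is −3.32.

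Rag2 encodes a subunit of the recombinase that assembles antigen receptor genes. Without it, T and B cells do not mature, whereas natural killer cells, macrophages and other myeloid cells remain. A sarcoma growing in muscle is a mixture of tumor cells, such host cells, vessels, fat and muscle fibers. Bulk RNA reads all of them together. T cell RNA in the 3 unlisted tumors lay within the range of the listed ones. The mean over 18 T cell genes was −1.54 in S41, −1.32 in S46 and −1.41 in S51. It ran from −2.07 to −1.13 in the 8 listed tumors and from 0.20 to 2.43 in the Rag2+/- tumors. Over 15 genes of B and plasma cells, the 3 values were −2.32, −1.88 and −2.34. S46 lay just above the listed range of −2.35 to −2.05, and all 3 lay below the lowest Rag2+/- tumor at −0.93. Rag2 itself was at −0.18 in S41, 0.34 in S46 and −2.05 in S51 against −1.31 to 0.36 in the listed tumors (p = 0.485 by exact permutation of the 11 tumors, two-sided), an estimated 13, 99 and 7 fragments. Trp53 was at 4.21, 4.65 and 4.25 against 3.47 to 4.94 (exact permutation p = 0.836). These values count RNA over the whole gene and do not show an edit or a deletion.

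The 3 unlisted tumors had no common profile. S41 was close to the listed tumors, S46 was distant from every tumor of the series (0.877 or less), and S51 was closer to some Rag2+/- tumors than to any listed one. Spearman correlations were taken over the 12842 genes with a mean value above 0 in the 11 tumors. S41 correlated with the listed tumors at 0.918 to 0.965, within the 0.861 to 0.979 among the listed tumors themselves. S46 correlated with them at 0.777 to 0.877, and S51 at 0.652 to 0.860. For S46 and S51 the nearest listed tumor was S47. The highest correlations of S51 were with the Rag2+/- tumors S59, at 0.956, and S60, at 0.935. These points share genes, tumors and normalization and are given as a description. The mean distance (1 minus the correlation) between an unlisted and a listed tumor was 0.159, against 0.0538 between listed tumors. The gap of 0.105 had an exact permutation p of 0.0485 over all 165 ways to choose 3 of 11 tumors (two-sided), where 0.0121 is the lowest value that can be reached. It was 0.0561 without S51 (exact permutation p = 0.133) and 0.0990 without S46 (exact permutation p = 0.178). Leaving out any 1 listed tumor also took the exact permutation p to between 0.05 and 0.0833.

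**Figure D1:**
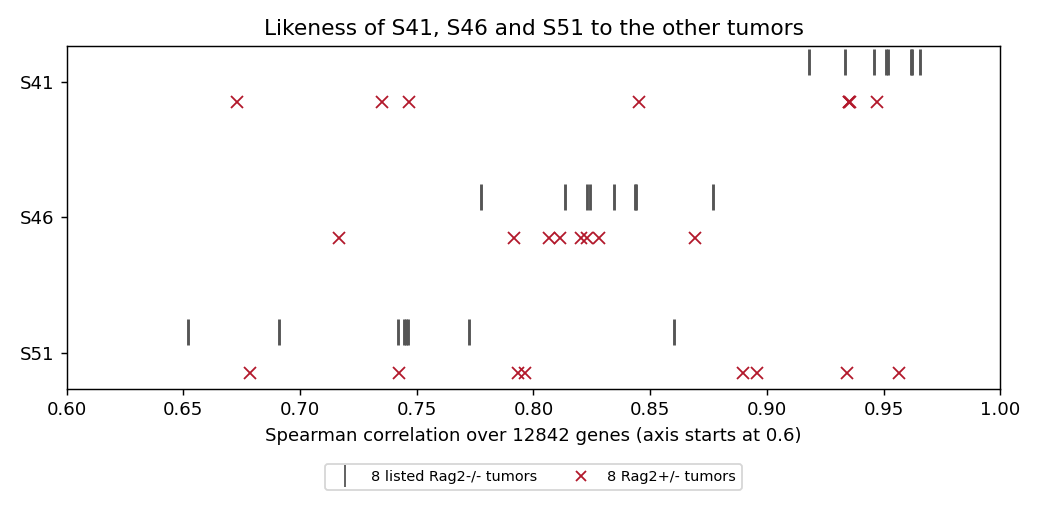
Spearman correlation (x axis, no unit, starting at 0.6) of S41, S46 and S51 (rows) with each of the 8 listed Rag2-/- tumors (gray bars) and each of the 8 Rag2+/- tumors (red crosses). S41 lies at 0.918 or more with all listed tumors, S46 at 0.877 or less, and the highest value of S51, 0.956, is with a Rag2+/- tumor.

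S41 was also the shallowest library. Its depth was estimated at 5.23 M fragments on genes, against 31.7 M in S46, 27.2 M in S51 and 27.3 to 31.5 M in the listed tumors. For a 1-kilobase transcript, each fragment added 0.208 normalized FPKM in S41 and 0.0361 to 0.0411 in the listed tumors, so low values of S41 are coarse. The share of genes above the floor was 34.0% in S41, 38.1% in S46 and 35.1% in S51. The unlisted mean was 35.8% ± 2.10 (SD, n = 3) against 38.2% ± 1.34 (SD, n = 8), or −2.41 percentage points (exact permutation p = 0.0606). The mean value over all genes was −1.39 ± 0.014 (SD, n = 3) against −1.37 ± 0.027 (SD, n = 8; exact permutation p = 0.133), and this difference changed sign with a pseudocount of 1. Xist, the RNA of the inactive X chromosome, was at 3.57 in S41 and at or near the floor in S46 and S51, which had Y-linked RNA (Ddx3y at 4.26 and 4.54). Among the listed tumors S49 and S50 had Y-linked RNA and the other 6 had Xist, so S46 and S51 are compared mostly with tumors that differ from them in sex-linked RNA.

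Counted gene by gene against the range of the 8 listed tumors, S41 stood out at the fewest genes, S46 at more and S51 at the largest number. A gene was counted when it lay more than 1 on the log2 scale, 2-fold, beyond the highest or the lowest listed tumor. In S41, 10 genes (0.0779% of those tested) lay above the range and 89 (0.693%) below it. In S46 these were 674 (5.25%) and 748 (5.82%), and in S51 1377 (10.7%) and 1666 (13%). S46 and S51 shared 470 genes below the range, 62.8% of those of S46 and 28.2% of those of S51. They shared 97 above it, 14.4% and 7.04% of their lists. Another 39 genes lay on opposite sides in S46 and S51. A single tumor has no replicate, so these are counts and not tests.

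**Figure D2:**
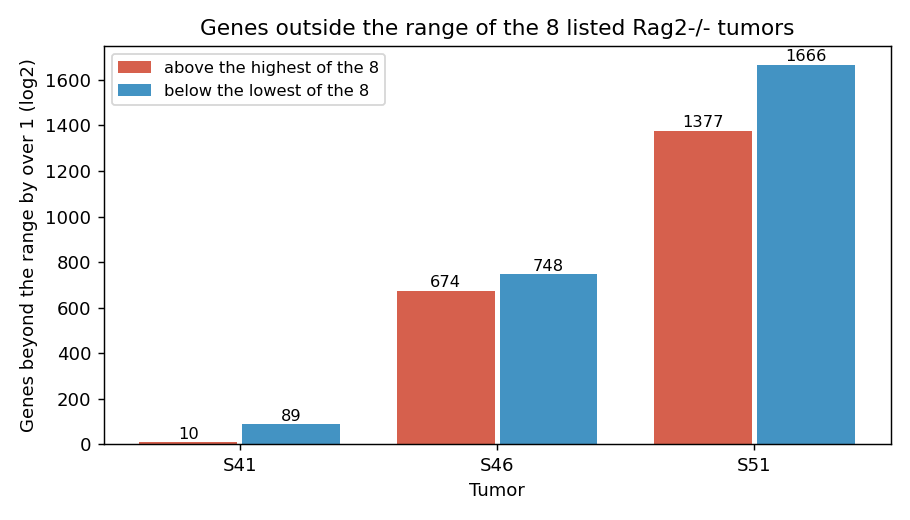
Number of genes (y axis) of the 12842 tested that lay more than 1 on the log2 scale above the highest (red) or below the lowest (blue) of the 8 listed Rag2-/- tumors, for S41, S46 and S51. The counts rise from 10 and 89 in S41 to 674 and 748 in S46 and 1377 and 1666 in S51.

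Taken as a group of 3, the unlisted tumors differed from the listed ones at few genes. By limma, with p-values adjusted by Benjamini-Hochberg over all 12842 genes, 6 (0.0467%) were lower and 0 (0%) higher at an adjusted p under 0.05, although 3442 genes (26.8%) had an unadjusted p under 0.05. Dis3 (ENSMUSG00000033166), a catalytic nuclease of the RNA exosome, was at 1.53 in S41, 2.32 in S46 and 2.10 in S51. The listed tumors lay from 3.43 to 4.0 with a median of 3.70, and the groups did not overlap (difference −1.74 ± 0.19 SE, limma adjusted p = 0.0151). Rrp1b, a nucleolar protein of ribosome biogenesis, was at 1.41, 1.32 and 1.48 against 2.25 to 3.23 (−1.36 ± 0.20 SE, limma adjusted p = 0.0372). The 3 unlisted values of Rrp1b lay closer together than any other gene of the 6. Cacng7, an auxiliary subunit of calcium channels and glutamate receptors, was at 2.78, 2.55 and 2.41 against 3.42 to 4.59 (−1.52 ± 0.21 SE, limma adjusted p = 0.0371).

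The other 3 genes were far lower in S46 and S51 than in S41. AW551984 was at 2.83 in S41, 0.95 in S46 and 0.52 in S51 against 4.15 to 5.19 in the listed tumors (−3.16 ± 0.41 SE, limma adjusted p = 0.0371). Slc7a3, a transporter of cationic amino acids, was at −1.08 in S41 and at the floor in S46 and S51 against 0.12 to 1.84. 6330403K07Rik was at −0.33 in S41 and at the floor in S46 and S51, against 0.87 to 3.25. Both also had limma adjusted p = 0.0371, and their S41 values rest on 5 estimated fragments each. On GRCm38, Dis3 lies on the minus strand of chromosome 14 from 99075206 to 99099770, Rrp1b on the plus strand of chromosome 17 from 32036100 to 32062865, and Cacng7 on the plus strand of chromosome 7 from 3332955 to 3368221. AW551984 lies on chromosome 9 from 39587396 to 39604403, Slc7a3 on the X chromosome from 101079210 to 101086020 and 6330403K07Rik on chromosome 11 from 71031941 to 71033513, all on the minus strand.

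Below the range by more than 1 in all 3 tumors were 7 genes (0.0545%), and above it 0 (0%). Besides Dis3, AW551984, Slc7a3 and 6330403K07Rik, these were Ly6h, Tceal3 and C1qtnf3. C1qtnf3, a secreted adipokine related to complement C1q, was at 4.73 in S41, −0.53 in S46 and 2.43 in S51 against 5.80 to 7.06 (limma adjusted p = 0.101). Ly6h was at −1.60, 0.19 and −3.32 against 1.68 to 2.96, and Tceal3 at −1.08, −2.54 and −1.16 against 0.17 to 2.07, with 3 estimated fragments for each in S41. The 4 next genes by p in the lower direction, Gm26917, Tmsb15l, Ly6h and Tbx4, missed the threshold (adjusted p of 0.0557 to 0.0585), as did the 10 leading higher genes, each with an adjusted p of 0.101. Among these, the ubiquitin-like Ubd was at 3.06, 5.35 and 5.87 against −1.13 to 2.60, and the tyrosine kinase Syk, which signals from immune receptors, at 4.25, 5.76 and 4.66 against 3.16 to 3.98. Zbtb7a, a transcriptional repressor, was at 4.45, 4.75 and 4.74 against 3.79 to 4.11. The other 7 were Slc9a3r1, Oxsm, Mocs1, Sh3bp2, Dusp22, Rnf141 and C9orf72, with differences of 0.78 to 1.28.

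**Figure D3:**
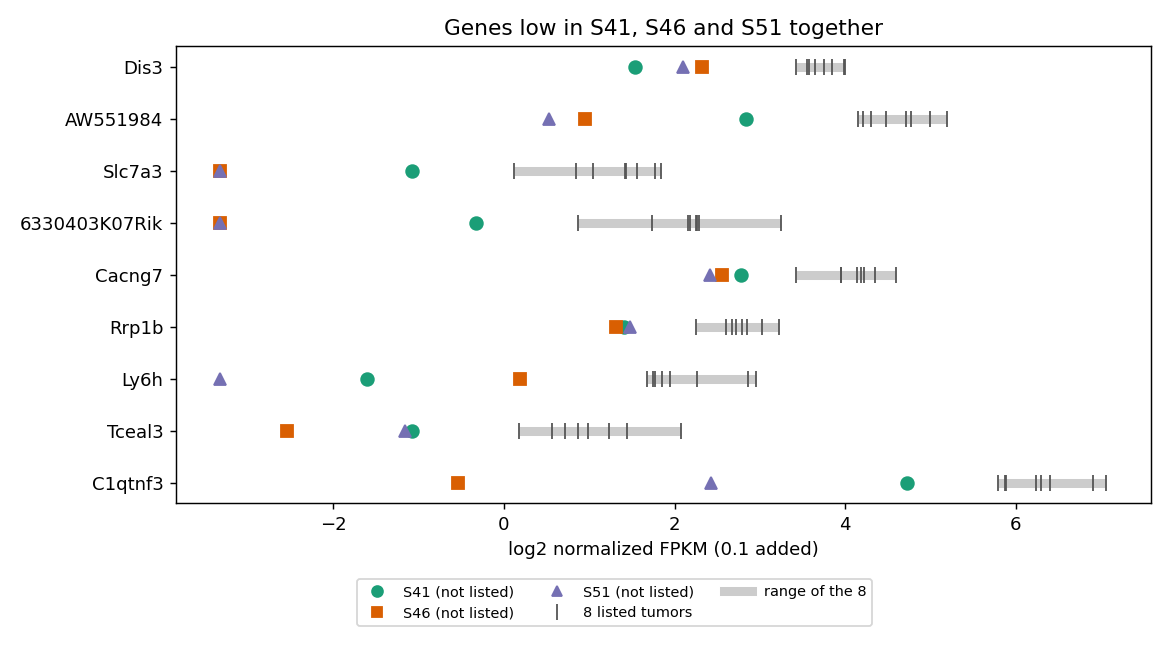
Value (x axis, log2 normalized FPKM with 0.1 added) of the 6 genes called lower in the 3 unlisted tumors and of Ly6h, Tceal3 and C1qtnf3 in S41 (circle), S46 (square), S51 (triangle) and the 8 listed tumors (ticks, with their range in gray). All unlisted values lie left of the gray range, those of Rrp1b within 1.32 to 1.48 and those of C1qtnf3 from −0.53 to 4.73.

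The count of called genes depended on single tumors. It was 0 without S42, S44 or S50 and with Xist as a covariate, and 1 or 2 without S43, S45, S46, S49 or S51. With S41 left out, S46 and S51 together differed from the 8 listed tumors at 4432 of 12867 genes, 1866 (14.5%) higher and 2566 (19.9%) lower, by the same limma fit. This comparison was added after values were seen and is used for S46 and S51 below. Genes picked because they lay far beyond the range in S46 or S51, such as Cdkn2a and Gzmc, lean toward a call. Their adjusted p-values are given as a description. Within the tumors that have Y-linked RNA (S46 and S51 against S49 and S50), 0 genes passed the threshold. An unadjusted p under 0.05 was found for 1982. Of the 4432 calls, 4256 were still tested there, and 4256 kept their direction. The differences of Cdkn2a (−5.31, against −5.28 with all 8) and Adipoq (7.47, against 6.88) are single examples and do not stand for all calls. The part of sex-linked differences in the calls was not tested. With Xist as a covariate, 2039 genes passed, and of the genes described below Cd68, Nos2, Gbp4, Irf1, Plk1, Cdk1 and Top2a did not (limma adjusted p of 0.0531 to 0.116). The fit tests the mean of S46 and S51, so a call can rest on 1 of them. Gbp10, for example, was called (limma adjusted p = 0.027) with S46 at 1.48, inside the listed range of −1.63 to 2.12.

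S41 differed from the listed tumors at a narrow set of genes, most of them low. The most distant below the range were Lsm7, a subunit of the Lsm ring that binds U6 and decapped RNA, Gm10275, Rrp1, the chaperone gene Hsp90aa1, Tmsb15b1, Rrp15, Rrp12 and Gm42418. Rrp1, which acts in maturation of the large ribosomal subunit, was at 1.18 in S41, 5.81 in S46 and 5.71 in S51, and the listed tumors lay from 5.45 to 6.08. An estimated 21 fragments stood behind the S41 value, against 2240 to 3720 in the listed tumors. Hsp90aa1 was at 2.83 in S41 against 7.01 to 7.87. Lsm7 was at the floor in S41 and had a wide listed range, 2.50 to 6.75.

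Since the Rrp names recurred, all 8 genes named Rrp in the table were examined, a list drawn up after their values were seen. All 8 lay below the listed range in S41, 7 of them by more than 1, with a median of −3.19 relative to the listed median. Their mean was 0.81 in S41 against 3.73 to 4.20 in the listed tumors, 3.17 in S46 and 3.81 in S51. Rrp15 was at 0.06 in S41 against 4.09 to 4.59, and Rrp12, a factor in export of ribosomal subunits, at −1.36 against 2.32 to 2.74. Of 11 genes of the RNA exosome, Exosc5 (0.77 against 4.15 to 4.95) and Dis3 lay below the range by more than 1, and 8 lay inside it. Of 20 other nucleolar processing factors, among them fibrillarin (Fbl) and Nop56, 17 lay inside the range and 0 beyond it by more than 1, beside 76.2% and 0.771% of all genes. The mitochondrial ribosomal RNAs mt-Rnr1 and mt-Rnr2 were at 3.90 and 2.97 in S41 against 7.32 to 8.32 and 6.34 to 8.05. All 13 protein genes of the mitochondrial genome lay inside the range, as did all 18 nuclear genes of oxidative phosphorylation. Gm42418, a locus of chromosome 17 with ribosomal RNA sequence, was at 2.06 in S41 and from 13.18 to 13.77 in 7 listed tumors, with S50 at 5.72. Depth moves with S41, and its part in these low values was not tested.

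Above the listed range in S41 were granzymes, the serine proteases of cytotoxic granules, and Bfsp1, a lens filament protein (3.68 against −2.32 to 1.07). Gzmf was at 6.29 in S41, against −0.70 to 4.47 with a median of 3.44 in the listed tumors. Gzmd (5.87 against −1.73 to 4.18), Gzme (4.03 against 0.26 to 2.79) and Gzmg (4.56 against −3.32 to 1.98) were also above it by more than 1, and Gzmc by less (6.21 against 3.16 to 5.31). The others of the 8 farthest above the range were Gm12655, the pseudogene Rps23-ps1 and Lyrm9. Bfsp1 and Lyrm9, with listed means of −0.10 and −0.15, were tested only through unlisted tumors where they are high. Gzmg did not pass the filter on low values without S41. Gzmf, Gzmd, Gzme and Gzmg were at the floor in both S46 and S51. Gzmc fell in S46 and S51 together (−0.27 and −2.05; −5.79 ± 0.66 SE, limma adjusted p = 0.000271). The same granzymes were low in Rag2+/- tumors, where Gzmf reached at most −2.15. Gzmb, which T and natural killer cells make, lay inside the listed range of 2.01 to 5.26 in S41 (4.97) and S51 (4.89) and at 1.33 in S46. The mean of 18 natural killer cell genes was 1.72 in S41, 0.63 in S46 and 1.52 in S51, all within the listed −0.01 to 1.76. Gzmc to Gzmg lie side by side on chromosome 14 and resemble one another in sequence, so how fragments were split among them is uncertain.

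Several other lists lay inside or near the listed range in S41. Of the 18 genes of muscle fibers all lay inside the range, as did 16 of 18 cell cycle genes, 13 of 16 genes of extracellular matrix and 12 of 15 tested interferon gamma genes, beside 76.2% of all genes. The matrix and interferon gamma counts are close to that share. Immediate early genes, which are induced within minutes of a stimulus, were low: 8 of 12 lay below the range, as did 1425 of all 12842 genes, Fos at 3.52 against 4.25 to 7.06 and Egr1 at 3.37 against 4.84 to 7.17. The list mean of S41 was also below the listed means for endothelial cells (3.16 against 3.31 to 3.84, with 5 of 12 genes below the range), heat shock and unfolded protein genes (4.64 against 4.84 to 5.26) and p53 targets (2.84 against 2.99 to 3.70). The same held for Schwann and nerve cells (0.43 against 0.81 to 2.46), aryl hydrocarbon receptor targets (−0.30 against −0.09 to 1.73) and dendritic cells (−0.62 against −0.27 to 0.69), of which Cd209a and Zbtb46 lay below the range by more than 1. Ribosomal protein genes were above it, at 9.19 against 8.81 to 9.11.

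S46 was set apart by fat, macrophage and vessel genes that were high and by Cdkn2a that was low. The mean of 12 adipocyte genes was 7.82, against −0.99 to 5.53 in the listed tumors, whose highest, S47, stood apart from the next at 1.15. All 8 tested members lay above the listed range in S46, as did 3477 of the 12842 tested genes. Some of the 8 were tested only through tumors where they are high, as given below, so this count is a description. Adiponectin (Adipoq), a hormone of fat cells, was at 8.68 in S46, 5.86 in S51 and −1.94 in S41 against −1.63 to 6.36, and perilipin 1 (Plin1), the coat of lipid droplets, at 8.47, 4.73 and −3.32 against −3.32 to 5.43. S41 was thus at or below the low end of the listed range and S51 near its top. The fatty acid carrier Fabp4, with a listed median of 4.29, was higher in S46 and S51 together by 5.66 ± 1.32 SE (limma adjusted p = 0.00898). Only 8 of the 12 genes passed the filter on low values, and Plin1, Cidec and Retn, with listed means below 0, passed it through the tumors where they are high, so no count of calls is given for this list. Ucp1 and Cidea, markers of brown fat, reached only 0.01 and 2.32 in S46. Genes farthest above the range in S46 were the natriuretic peptide receptor Npr3 (5.84 against −0.06 to 1.71), haptoglobin (Hp, 11.49 against 2.16 to 7.39), Cldn15, Nnat, Sncg, Atp6v0d2, Ear2 and Aoc3, an amine oxidase of fat and vessel cells (7.14 against 0.95 to 3.93). Sncg and Hp were also above the range in S51, at 5.59 and 10.22. Cldn15 and Ear2, with listed means of −0.24 and −0.23, likewise passed the filter through tumors where they are high. Whether fat around the tumor was sampled with S46 was not tested.

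Macrophage genes were higher in S46 than in any listed tumor. Their mean was 7.94, against 6.12 to 6.79 in the listed tumors and 6.61 in S51, and 13 of 14 lay above the range, 8 by more than 1. Of all 12842 genes, 3477 lay above the range in S46, 5.25% by more than 1. Cd163, which is counted in both the 13 and the 8, was among those tested only through its high level in S46 and S51. Cd68, a lysosomal protein of macrophages, was at 8.78 against 6.00 to 7.19, and the scavenger receptor Cd163 at 4.12 against −1.34 to 1.55. Endothelial genes were also high in S46, with 12 of 12 above the range and Pecam1, an adhesion molecule of endothelium, at 6.26 against 4.27 to 4.84. MHC class II genes, which present peptides to CD4+ T cells, were above the range in S46 and in S51 for 7 of 7 tested genes. All 7 passed in the fit of both, where 14.5% of all genes were called higher, 4 with quantile normalization and 2 with Xist as a covariate, among them the transactivator Ciita (3.54 and 3.01 against 0.66 to 2.11; 2.10 ± 0.37 SE, limma adjusted p = 0.00242) and the peptide exchange factor H2-DMa (5.54 and 5.42 against 3.60 to 4.55).

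Cdkn2a, which encodes the tumor suppressors p16INK4a and p19ARF, was at 1.12 in S46 and 5.42 in S51. It was at 8.62 in S41 and from 7.98 to 8.95 in the listed tumors, with a median of 8.61. S46 was thus separated from every other tumor, the lowest Rag2+/- tumor being at 5.12, and the 2 tumors together fell by 5.28 on the log2 scale ± 0.77 SE (limma adjusted p = 0.000944). An estimated 46 fragments were seen in S46, against 5491 to 11941 in the listed tumors. The neighboring inhibitor gene Cdkn2b was at 0.96 in S46 and 2.61 in S51 against 4.38 to 5.44 (−3.00 ± 0.38 SE, limma adjusted p = 0.000477). On GRCm38, Cdkn2a lies on the minus strand of chromosome 4 from 89274471 to 89294653 and Cdkn2b on the same strand from 89306299 to 89311039. On the other side lies Mtap, an enzyme of methionine salvage, from 89137122. It was at 3.51 in S46 and 2.89 in S51 against 5.01 to 5.63, with S41 at 5.11. The more distant Klhl9 (listed range 4.15 to 4.69) was at 4.83 in S46 and 4.22 in S51, and Focad (1.96 to 2.53) at 2.36 in S46 and, below its range, at 1.40 in S51. Hacd4, which overlaps the end of Focad on the other strand, was at 4.71 in S46 and 2.12 in S51, above and below its listed range of 2.85 to 3.75. RNA values do not show the number of gene copies. Mdm4, which restrains p53, lay inside the range in all 3 tumors.

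Also far below the range in S46 were Crabp1, which binds retinoic acid (0.44 against 8.25 to 9.51), the matrix protein gene Thbs4 (1.13 against 7.61 to 8.79), Esm1, the growth factor midkine (Mdk), Col8a2 and Dlk1, an inhibitor of fat cell differentiation (1.15 against 6.30 to 8.67). Each of these was also below the range in S51, where Crabp1 was at 4.10 and Dlk1 at 3.74. The paternally expressed Dlk1 shares an imprinted cluster with the maternal RNA Meg3, which was at 1.41 in S46 and 2.31 in S51 against 3.52 to 6.22 (−3.31 ± 0.61 SE, limma adjusted p = 0.00312).

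Many mesenchymal genes and some matrix genes were called lower in S46 and S51 together. Of 14 mesenchymal genes, 9 were called lower and 0 higher, with a median difference of −1.36, where 19.9% of all genes were lower and the median over all genes was −0.02. With Xist as a covariate 4 of the 14 passed, and with the muscle list as a covariate 5. Tenascin C (Tnc), a matrix protein of wounds and tumors, was at 3.24 in S46 and 2.42 in S51 against 6.21 to 7.54 (−4.13 ± 0.33 SE, limma adjusted p = 4.06e-05), with S41 at 6.54. Pdgfra, the platelet-derived growth factor receptor of mesenchymal cells, was at 4.87 and 3.41 against 6.14 to 7.03 (−2.61 ± 0.32 SE, limma adjusted p = 0.000411). Fibronectin (Fn1) was at 7.70 and 6.48 against 8.69 to 10.14 (−2.59 ± 0.37 SE, limma adjusted p = 0.000913). The mesenchymal transcription factors Prrx1 and Twist1 fell by 1.68 and by 1.76. Not all matrix genes fell: 8 of 16 were called lower (5 with Xist as a covariate), and the basement membrane collagen Col4a1 was at 8.67 in S46, above its listed 6.70 to 7.62, and at 5.98 in S51, below it.

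**Figure D4:**
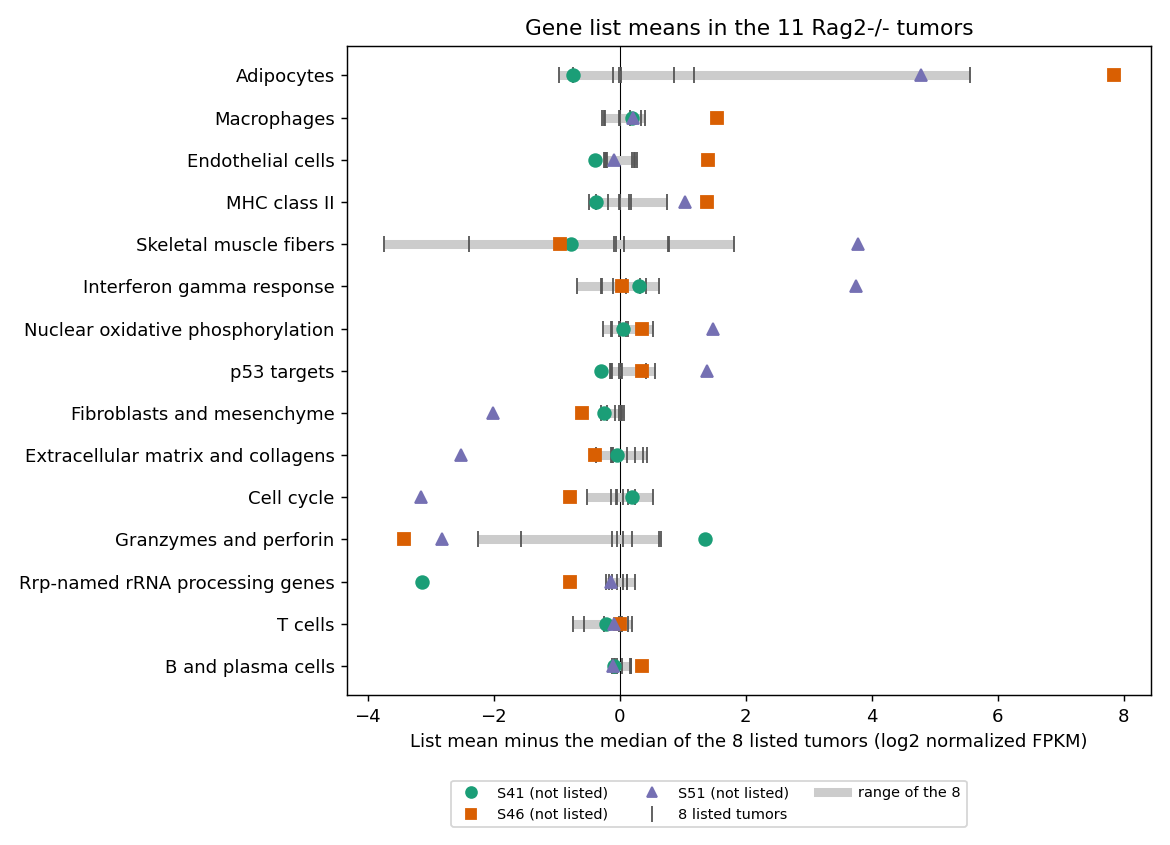
Mean of each gene list (rows) in S41 (circle), S46 (square), S51 (triangle) and the 8 listed tumors (ticks, with their range in gray), as the difference from the median of the listed tumors (x axis, log2 normalized FPKM). S46 lies right of the range for adipocytes, macrophages and endothelial cells, S51 for muscle fibers and the interferon gamma response and left of it for the cell cycle, and S41 left of it for the Rrp genes, while T cell genes lie within it in all 3.

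S51 combined high muscle and high interferon gamma genes with low cell cycle and matrix genes. The mean over 18 genes of muscle fibers was 11.01, against 3.49 to 9.04 in the listed tumors, 6.46 in S41 and 6.29 in S46, and 16 of the 18 lay above the range by more than 1. Skeletal actin (Acta1) was at 14.50 against 6.38 to 11.81, and the muscle creatine kinase Ckm at 14.06 against 5.54 to 11.31. Type IIa myosin (Myh2), at 3.81, lay inside its listed range of 1.26 to 5.43. S46 lay inside the range for all 18, and 0 of 18 passed in the fit of both (Acta1 2.22 ± 1.44 SE, limma adjusted p = 0.246). The muscle ubiquitin ligase Trim63 and Fbxl22 were among the 8 genes farthest above the range (9.40 against −0.57 to 4.80 and 4.89 against −1.87 to 0.27). Fbxl22, with a listed mean of −0.48, passed the filter on low values through S51. Of 10 genes of muscle precursors only 3 passed the filter, whose mean includes S51. All 3 also lay above the range, with myogenin (Myog) at 4.27 against −0.97 to 2.94. Of 18 nuclear genes of oxidative phosphorylation, 17 lay above the range, 9 by more than 1, where 4405 of all 12842 genes lay above it and 10.7% by more than 1. The 4 Rag2+/- tumors that correlated best with S51 (S52, S56, S59 and S60) had muscle means of 11.05 to 12.19, and the 4 others 5.73 to 8.54.

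The mean of the interferon gamma genes was beyond the listed range in S51 only. Interferon gamma induces the transcription factor Irf1, guanylate-binding proteins, immunity-related GTPases and chemokines that draw T cells. The mean of 17 such genes was 7.26 in S51, 3.81 in S41 and 3.54 in S46. The listed tumors lay from 2.83 to 4.14 and the Rag2+/- tumors from 3.04 to 4.59. All 15 tested genes lay above the listed range in S51, 14 by more than 1, at a median of 3.55 above the listed median. Of all 12842 genes, 4405 lay above the range in S51, 10.7% by more than 1. Gbp2 was at 9.17 against 4.94 to 6.11, the GTPase Igtp at 9.92 against 4.34 to 6.18, and the T cell chemokine Cxcl9 at 8.72 against 3.07 to 4.89. Nos2, the inducible nitric oxide synthase of activated macrophages, was at 6.64 against −0.87 to 1.01, and Cd274, which encodes the checkpoint ligand PD-L1, at 7.45 against 1.23 to 2.99. Gbp10, Saa3, Serpina3f and Ly6i completed the 8 genes farthest above the range. Serpina3f, with a listed mean of −0.11, passed the filter on low values through S51. Of 22 genes of the type I interferon response in S51, 4 lay above the range by more than 1, beside 10.7% of all genes. Above it at all were 15, beside 4405 of all 12842. In S46, 14 of the 22 lay below the range, as did 4140 of all 12842 genes. Muscle RNA and interferon gamma RNA were both high in S51, whereas the 4 Rag2+/- tumors with muscle means of 11.05 or more had interferon gamma means of 3.27 to 4.24.

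The promoters of these genes are shown because the genes were high together in S51 and most of the windows at hand hold a known response element. RefSeq promoter windows of GRCm38, 250 bases before to 50 after the start, were at hand for 9 of the 17 genes. The interferon-stimulated response element, read as TTTC and TTTC with 2 free bases between them and searched on both strands, was found in 7 of the 9 (Cxcl10, Gbp2, Gbp3, Gbp5, Irgm1, Igtp and Socs1) and in 3.99% of 27025 genes. It was also in 10 of 17 windows of the type I interferon list, of which 0 genes were called in S46 and S51. The letters TTCNNNGAA of the gamma-activated sequence were found in 3 of the 9 (Irf1, Gbp5 and Igtp) and in 9.55% of all genes. The list was chosen for its known regulation, so the count is a description, and a match does not show binding. In the lines below, 70 bases of each promoter are given 5′ to 3′ along the gene's strand with the match of this element, on either strand, in capitals. The matches may share bases with one another or with the other motifs searched.
Gbp2, chr3:142620574-142620643, plus strand: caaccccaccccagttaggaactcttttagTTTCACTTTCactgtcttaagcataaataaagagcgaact
Gbp5, chr3:142496739-142496808, plus strand: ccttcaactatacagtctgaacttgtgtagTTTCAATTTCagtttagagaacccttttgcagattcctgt
Igtp, chr11:58199492-58199561, plus strand: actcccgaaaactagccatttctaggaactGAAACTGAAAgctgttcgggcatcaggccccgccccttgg
Irgm1, chr11:48871405-48871474, minus strand: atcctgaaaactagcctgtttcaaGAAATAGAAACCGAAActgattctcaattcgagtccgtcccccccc
Cxcl10, chr5:92349063-92349132, minus strand: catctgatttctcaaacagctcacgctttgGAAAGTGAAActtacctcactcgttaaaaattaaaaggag
Irgm1 holds 2 overlapping matches. In S51 these genes were at 9.17 (Gbp2), 7.14 (Gbp5), 9.92 (Igtp), 8.88 (Irgm1) and 9.0 (Cxcl10). Cxcl10 lay above its listed range of 6.01 to 7.84 in S51 and below it in S46, at 4.14.

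In the fit of S46 and S51 together, 8 of 15 interferon gamma genes were called higher and 0 lower, beside 14.5% and 19.9% of all genes. These included Gbp4 (3.24 and 6.76 against 1.36 to 2.76; 2.82 ± 0.68 SE, limma adjusted p = 0.0106). With Xist as a covariate, 2 of the 15 passed. Inflammatory chemokines followed in part: in S51 11 of 15 lay above the range, as did 4405 of all 12842 genes, and Ccl3 was higher in both (3.96 and 3.28 against 0.34 to 2.23; 2.25 ± 0.43 SE, limma adjusted p = 0.00381). In S41 Ccl3 was at −0.64. The p53 targets had 11 of 15 tested genes above the range in S51, such as Phlda3 (8.0 against 4.45 to 6.21) and the death receptor gene Fas (5.20 against 1.74 to 2.93), which was also higher in S46 (3.63). Cdkn1a was at 7.65 in S51 against 4.60 to 6.81. The 4 muscle-rich Rag2+/- tumors had p53 target means of 3.66 to 4.29, beside 4.52 in S51, 2.99 to 3.70 in the listed tumors and 2.78 to 3.74 in the other 4 Rag2+/- tumors.

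Cell cycle genes, which cells switch on to copy their DNA and divide, were low throughout in S51. All 18 lay below the listed range in S51, 16 by more than 1, and 12 of 18 lay below it in S46. Of all 12842 genes, 4832 lay below the range in S51, 13% by more than 1, and 4140 in S46. Their mean was 1.35 in S51, 3.71 in S46 and 4.69 in S41 against 3.98 to 5.03. In the fit of S46 and S51, 17 of 18 were called lower, where 19.9% of all genes were, and with Xist as a covariate 5 of 18 were called. The mitotic kinase gene Plk1 was at −1.22 in S51 and 3.24 in S46 against 3.81 to 4.80 (−3.43 ± 0.79 SE, limma adjusted p = 0.00848). Cdk1, the kinase that drives entry into mitosis, was at 1.52 and 4.61 against 5.39 to 6.47 (−2.80 ± 0.59 SE, limma adjusted p = 0.00573). Pcna, the sliding clamp of DNA replication, was at 5.14 in S51 and 6.64 in S46 against 6.0 to 6.5 and did not pass (limma adjusted p = 0.428). Cdc20, an activator of the anaphase-promoting complex, was the gene farthest below the range in S51, at −1.82 against 4.62 to 5.41. It was followed by the microglia and monocyte receptor gene Cx3cr1 (−2.45 against 3.84 to 5.44), Trim59, Cenpm, the neurofilaments Nefl and Nefm, Gzmc and Gemin4. The muscle-rich Rag2+/- tumors S52, S56, S59 and S60 had cell cycle means of 3.49, 2.11, 2.09 and 2.12, and the 4 others 3.92 to 4.99.

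The promoters of mitotic genes often carry a cell cycle homology region, TTTGAA, near a CCAAT box. In the windows of 16 of the 18 cell cycle genes, TTTGAA on either strand was found in 7 (Mki67, Top2a, Ccnb2, Cdk1, Aurka, Plk1 and Mcm2) and in 20.2% of all genes, and CCAAT in 13 and in 41.1%. TTTGAA was also in 4 of the 9 interferon gamma windows, whose genes were high in S51. The matches of Cdk1 and Top2a, shown in capitals in 70 bases each, lie close to the start and are given as examples of this element.
Cdk1, chr10:69352890-69352959, minus strand: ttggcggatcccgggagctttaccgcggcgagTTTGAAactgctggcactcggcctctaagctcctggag
Top2a, chr11:99024175-99024244, minus strand: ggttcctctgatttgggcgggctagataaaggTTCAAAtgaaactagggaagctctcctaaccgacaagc
Top2a, a topoisomerase of dividing cells, was at 1.23 in S51 and 4.55 in S46 against 4.90 to 5.98.

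**Figure D5:**
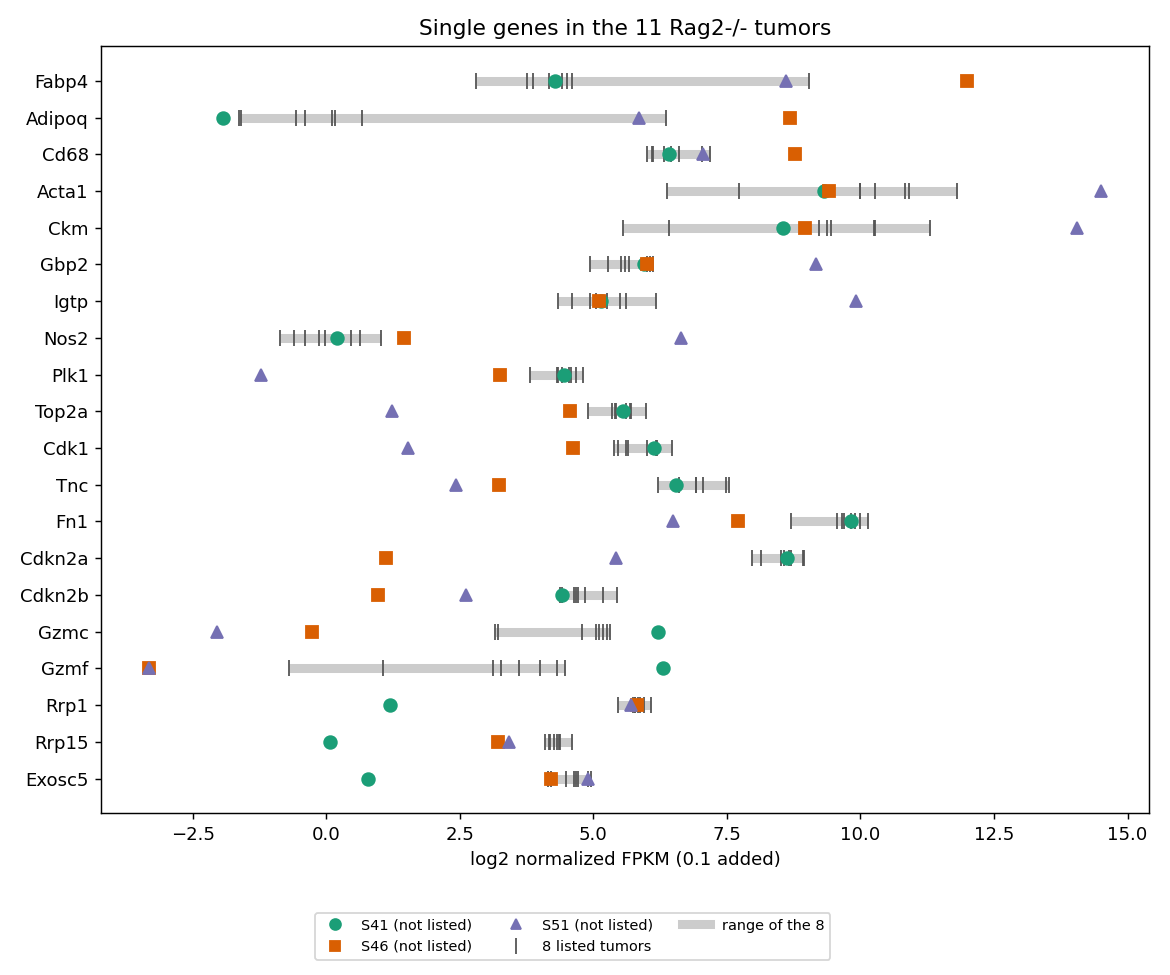
Value (x axis, log2 normalized FPKM with 0.1 added) of 20 genes (rows) in S41 (circle), S46 (square), S51 (triangle) and the 8 listed tumors (ticks, with their range in gray). Cdkn2a lies at 1.12 in S46 and 5.42 in S51 against 7.98 or more in the listed tumors, Gzmf at 6.29 in S41 and at the floor in S46 and S51, and Rrp1 at 1.18 in S41 against 5.45 or more.

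Matrix genes were lowest in S51. Of 16, all lay below the range, 14 by more than 1, at a median of −2.52 relative to the listed median. Mesenchymal genes had 12 of 14 below it. Of all 12842 genes, 4832 lay below the range in S51, 13% by more than 1. In S46 the counts below the range were 5 of 16 matrix genes and 6 of 14 mesenchymal genes. The matrix count of S46 is near the 4140 of 12842 for all genes. The matrix protein gene Bgn was at 6.85 in S51 and 8.78 in S46 against 9.39 to 10.36. The muscle-rich Rag2+/- tumors had matrix means of 5.48 to 6.65, beside 4.73 in S51, 6.85 in S46, 6.87 to 7.68 in the listed tumors and 7.07 to 7.71 in the other 4 Rag2+/- tumors. With the muscle list as a covariate, 3931 genes were called in S46 and S51 together, of which 3708 were among the 4432. In that fit 16 of 18 cell cycle genes (17 without the covariate), 5 of 16 matrix genes (8 without) and 5 of 14 mesenchymal genes (9 without) were called.

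Among the remaining lists, the fit of S46 and S51 called 11 of 18 nuclear oxidative phosphorylation genes, 7 of 13 protein genes of the mitochondrial genome and 5 of 10 NRF2 targets higher, where 14.5% of all genes were, and 0 of each lower. With Xist as a covariate these were 2, 0 and 3, and with quantile normalization 4, 0 and 4. With the muscle list as a covariate they were 8, 7 and 3. S46 lay inside the listed range for 17 of the 18 nuclear and 12 of the 13 mitochondrial genes. S51 lay above it for 17 and 13, so both lists were high mainly in S51. Of the muscle-rich Rag2+/- tumors, S56 and S59 had higher nuclear means (9.06 and 8.40) than S51 (8.06). S60 (8.05) was level with S51 and S52 was lower. The mitochondrial means of these 4 were 11.98 to 13.16, beside 11.57 in S51. Of 20 nucleolar factors, 10 were called lower and 0 higher (5 with Xist as a covariate), where 19.9% of all genes were lower. Of 11 exosome genes 6 were called lower (5 with Xist as a covariate). Both lists were drawn up after values were seen. Among the exosome genes was Exosc8 (3.65 and 2.90 against 4.13 to 5.15; −1.38 ± 0.27 SE, limma adjusted p = 0.00378). Gas5, a host of small nucleolar RNAs, was at −0.26 and −0.93 against a wide listed range of 0.46 to 6.65 (−5.87 ± 1.30 SE, limma adjusted p = 0.00706). Of 22 type I interferon genes 0 were called, and of 19 genes of hypoxia and glycolysis 4 were higher and 1 lower.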

How the data were processed

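RNA of 19 mouse sarcomas, 1 library per tumor, was analysed from 1 table of log2 values. Per the study's methods, the authors mapped reads with Omicsoft OSA against mouse B38, used gene models of Ensembl release 86, scaled FPKM to the upper quartile and deposited the result as log2 values. The submitters' processing notes name Trimmomatic 0.36, STAR, HTSeq and mm10 instead. The lowest value in every tumor shows that 0.1 had been added. All columns matched a tumor, so 0 were left out. The values are not counts, and no count test was used. The methods state that samples failing quality control or with too little material were removed and name none, so why S41, S46 and S51 are not listed is not known here.

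Group differences were fitted with limma 3.58.1 in R 4.3.3 (trend, Benjamini-Hochberg over all genes with a mean value above 0), tested on simulated data, and single values by two-sided exact permutation of 3 against 8 tumors. Each unlisted tumor was also set against the range of the 8 with a margin of 1. Depth was estimated from the steps of low values with GENCODE vM21 transcript lengths, for which 83.7% to 88.1% of low values in the listed tumors were whole multiples within 0.05 fragments. Named genes are the 10 lowest p per direction, the genes beyond the range in all 3 tumors, the 8 farthest above and below the range per tumor, and members of 40 gene lists. The members, lists and tests were chosen with earlier results of these data known, and 4 further lists (Rrp genes, exosome, other nucleolar factors, granzymes), Mtap, Klhl9, Hacd4, Focad and Cd274 were singled out after values were seen. Alternatives are given in the closing section. Tables and permutations were made in Python 3.11.15 (scipy 1.17.1, numpy 2.4.6, pandas 2.3.3). RefSeq promoters are of GRCm38.p6. P-values measure the spread between tumors. Exome data were not analysed here.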

Additional observations from a re-analysis of the deposited data

Results flagged for a closer look

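Among the 8 listed tumors, S47 stood apart from the others in 3 of the 69 quantities examined for a single distant tumor. Chance flags about 1 group in 20. The mean of the adipocyte list was 5.53 in S47, and the next tumor was at 1.15. The mean of the neutrophil list was 3.82 in S47, with the next at 1.41, and that of the skin and epithelium list was 0.96, with the next at −1.20. S47 is also the listed tumor nearest to S46 and S51, and it holds the highest listed mean for adipocyte and muscle genes.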

How the results depend on the processing

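The 6 genes called in the 3 unlisted tumors were 2 with a pseudocount of 1, 12 without the trend, 15 (3 of them higher) with the muscle list as a covariate, 8 (2 higher, 1 shared with the 6) without the filter, and 0 by limma with sample weights, with all 19 tumors and with Xist as a covariate (2021, 2284 and 1909 at an unadjusted p under 0.05). Leaving out 1 tumor gave 0 to 4432, where 4432 is without S41 and the other 10 gave at most 6. For S46 and S51, added after seeing the data, the 4432 calls were 2039 with Xist as a covariate, 0 against S49 and S50 alone (1982 at an unadjusted p under 0.05), and 3742 to 4780 without 1 listed tumor. Without a filter, 526 genes of S41 lay beyond the range, with 1 above it and 22 below it in all 3 tumors. With a mean value above 2, these were 35 for S41, 906 for S46 and 3 below in all 3. With a pseudocount of 1, they were 36 and 3 for S41 and for all 3 below. With no margin, the counts were 3051, 7617 and 9237 for S41, S46 and S51, 201 above in all 3 and 243 below. Leaving out 1 listed tumor gave 100 to 123, 1436 to 1763 and 3059 to 3621 genes, 7 to 12 below in all 3 and 0 above. The profile distance was 0.140 (exact permutation p = 0.0606) over genes with a mean value above 2 and 0.0561 to 0.160 without 1 tumor, where it passed only without S41. It was 0.0159 (exact permutation p = 0.0121) over all genes without the filter and 0.106 (exact permutation p = 0.0485) by Pearson correlation. The difference in detected genes was −1.07 percentage points (exact permutation p = 0.0364) at a normalized FPKM above 0.1 and −3.58 to −1.56 without 1 tumor, passing only without S46 (exact permutation p = 0.0444). The difference in the mean value was 0.000713 with a pseudocount of 1 and −0.0328 to −0.0189 without 1 tumor. Of the 6 called genes, AW551984, Cacng7 and Rrp1b kept their call in 3 and Slc7a3 and 6330403K07Rik in 2 of the 11 fits without 1 tumor. Dis3 kept its call in 8 of them (not without S42, S44 or S50) and lost it with sample weights (limma adjusted p = 0.142). It also lost its call with all 19 tumors and with Xist as a covariate. Its limma adjusted p ran from 0.000347 to 0.142 over fewer alternatives. These were a pseudocount of 1, quantile normalization, a median shift, sample weights and 1 tumor left out. The cause of these changes was not tested. No paired analysis was possible because the labels pair no tumors. The depth of S41 limits its low genes, and 2 or 3 tumors limit every test.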
